A study of Saccharomyces cerevisiae with 11 samples.

Results

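Trichostatin A (TSA) was added to wild type budding yeast, and the RNA was compared with that of untreated wild type yeast on 1 two-colour Agilent whole-genome array. The array was chosen by its title, and it is 1 of 11 arrays in the series. The other 10 arrays hold 5 deletion strains, each without and with TSA. The title of the chz1 array read as without TSA adds the word glucose, which the titles of the other untreated arrays lack. A strain lacks VPS75, RTT106, NAP1, CHZ1 or ASF1, all of which encode histone chaperones. The wild type strain was BY4742, the parent of the deletion strains. Cells grew at 30 °C in rich medium with 1% yeast extract, 2% peptone and 2% glucose, and TSA was given at an optical density of 0.5, at 10 µM for 1 hour. The control channel held untreated wild type RNA labelled with Cy5, and the treated channel held RNA of wild type cells with TSA labelled with Cy3. No dye was swapped, so a bias of the dyes and an effect of TSA cannot be told apart by dye alone.

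TSA blocks zinc-dependent histone deacetylases. In budding yeast the zinc-dependent enzymes include Rpd3, Hda1 and the Hos proteins, which remove acetyl groups from histones at promoters and within genes. How far TSA blocked each of them was not measured here. Sir2 uses NAD and is not a target of TSA. Deacetylases act both as repressors and, at some stress and metabolic genes, in activation, so their inhibition is known to move transcripts both ways.

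Each gene had 1 probe and 2 repeat measurements on the array. A value below is the mean log2 ratio of TSA over untreated RNA over the 2 repeats after loess normalization, unless it is called a signal, and an SD is that between the repeats. This SD covers the measurement and no spread between cultures, since wild type with TSA has no replicate. The direction of the array rests on the labels and on the column order of the other arrays, because no gene is deleted in these cells. That order was not uniform, since the nap1 array without TSA had the opposite one by its deleted gene. With the wild type array turned, every higher gene would be a lower one. The repeats correlated at r = 0.92 across genes, which are not independent replicates, and their pooled SD was 0.063. The median signal was 357 in the untreated channel and 374.5 in the TSA channel, against 471.75 to 1094.75 on the other arrays over both channels. The marker genes that BY4742 lacks (LYS2, HIS3, LEU2 and URA3) had signals of 11.5 to 37 in the untreated channel and 23.5 to 56.5 in the TSA channel. The cells had the transcripts of the α mating type, with an untreated signal of 14260 in repeat 1 for MF(ALPHA)1 against 44 for the a-factor gene MFA1.

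Of 5878 genes tested, 13 were at least 2-fold higher with TSA (0.221%) and 6 at least 2-fold lower (0.102%). At 1.5-fold, 58 genes were higher (0.987%) and 32 lower (0.544%), and 52 and 24 of these passed in both repeats. The split between higher and lower genes depends on the processing. The authors' deposited log ratios, used without the offset and the loess and with a median of 0.09 over all genes, gave 81 genes 2-fold higher and 9 lower. Median centring in place of loess gave 14 and 8, and loess without the offset 26 and 11. Loess sets the median of all genes to −0.003, so a change common to most transcripts would not show.

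**Figure D1:**
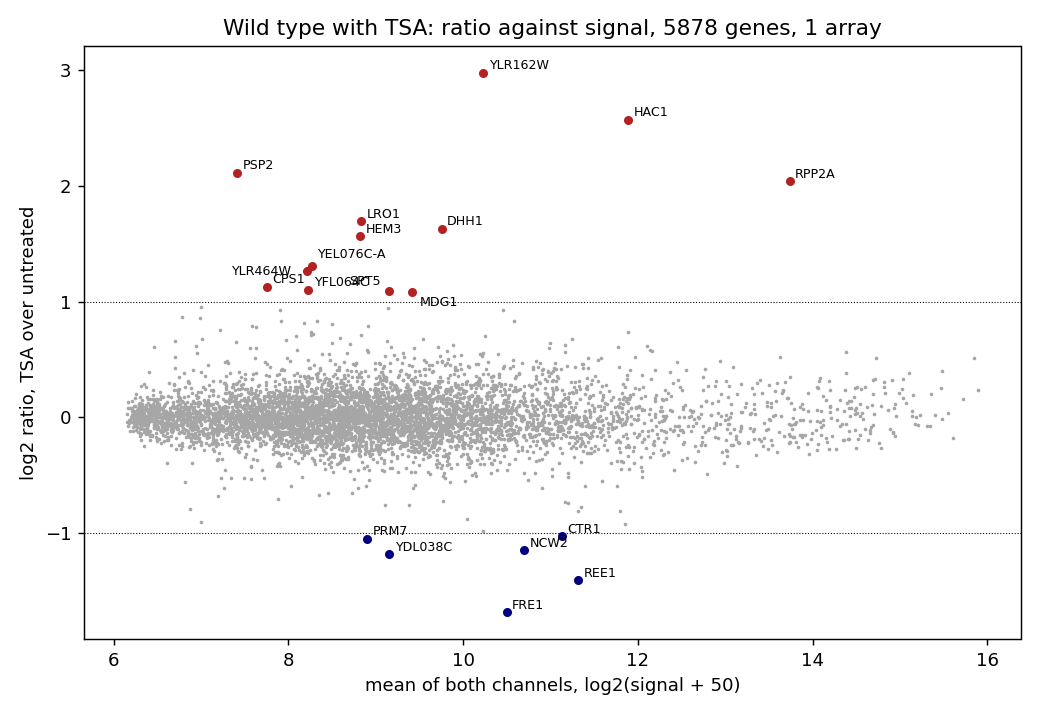
The log2 ratio of TSA over untreated RNA (vertical axis) is plotted against the mean log2(signal + 50) of both channels (horizontal axis) for the 5878 genes of the wild type array. Each point is a gene, the dotted lines mark 2-fold, and the 13 genes above and 6 genes below them are named, from FRE1 at −1.68 to YLR162W at 2.97.

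The lowest genes were led by copper uptake. FRE1, a cell surface reductase that readies copper and iron for import, had untreated signals of 3139 and 1992 in the 2 repeats and TSA signals of 900 and 600. Its ratio was −1.68 (SD 0.045), which is 3.21-fold lower. The high-affinity copper transporter gene CTR1 had untreated signals of 3229 and 3103 and TSA signals of 1572 and 1440, a ratio of −1.03 (SD 0.069). For both genes the signals of the channels did not overlap. FRE7, a reductase gene that responds to low copper, stood at −0.90 on dim signals of 108 and 119 untreated against 42 and 58 with TSA. FET4, which encodes a low-affinity transporter of iron, copper and zinc, stood at −0.65.

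Of the 9 measured genes of copper uptake and metalloreductases, these 4 were at least 1.5-fold lower and none was 1.5-fold higher, against 0.544% lower over all genes. The median of the list was −0.17, beside −0.003 for all genes. The copper-sensing activator MAC1 (−0.11), the second high-affinity transporter gene CTR3 (−0.17), the vacuolar transporter gene CTR2 (−0.08) and the copper delivery genes ATX1 (0.15) and CCC2 (0.09) stayed within 1.5-fold. Genes of copper detoxification stood between −0.47 for CUP2, which encodes their activator, and 0.05 for the metallothionein gene CUP1-2. A lower ratio may reflect less of the transcript in each cell or fewer cells that carry it, and these cannot be told apart in RNA of a whole culture.

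In the iron and zinc lists, FET4 alone passed 1.5-fold. FRE1 (−1.68), which also readies iron for import, was counted in the copper list and not in the iron list. The iron regulon had a median of −0.12, with 7 of 27 genes above 0 and none past 1.5-fold. FIT2, for a mannoprotein that holds iron at the wall, stood at −0.55, the reductase gene FRE4 at −0.52, TIS11, which destabilises mRNAs when iron is short, at −0.40, and the multicopper oxidase gene FET3 at −0.32. The activator AFT1 stood at 0.02. In the zinc regulon the median was −0.15 over 10 genes, with FET4 past 1.5-fold and IZH2 at −0.52, while the activator ZAP1 (−0.03) and the high-affinity transporter gene ZRT1 (0.03) were near 0.

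With TSA, the deletion strains, also read against untreated wild type, had FRE1 ratios of −0.69 (asf1), −2.44 (chz1), −1.39 (nap1), −1.75 (rtt106) and −2.20 (vps75). Without TSA the same strains had FRE1 ratios of −0.32, 1.23, −0.53, −0.77 and −0.66. CTR1 stood at −0.90, −1.63, −0.97, −1.36 and −1.92 with TSA in the same order. The arrays share wild type as the type of reference, so these values are set side by side and are not independent of each other.

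REE1, which takes part in the regulation of the enolase gene ENO1, had untreated signals of 3739 and 4522 and TSA signals of 1321 and 1697. Its ratio was −1.40 (SD 0.034), 2.65-fold lower and the lowest after FRE1. IRC7, which encodes a β-lyase of sulfur amino acids, stood at −0.98 (SD 0.020) with signals of 1476 and 1814 untreated and 702 and 901 with TSA. REE1 stood at −0.51, −1.36, −0.97, −1.32 and −0.95 on the TSA arrays of asf1, chz1, nap1, rtt106 and vps75, and IRC7 at −0.66, −1.29, −0.68, −1.24 and −1.43.

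The lowest genes also held cell surface and signalling genes. NCW2, a cell wall protein gene, stood at −1.15 (SD 0.11) and PRM7, a pheromone-regulated gene, at −1.05 (SD 0.082). YDL038C, which has no standard name and lies beside PRM7 in the gene order of assembly R64, stood at −1.18, while BSC1 on its other side stood at 0.28. CRR1, the neighbour of FRE1 in that order and known for a role in spore wall formation, stood at −0.70. The calmodulin-dependent kinase gene CMK2 stood at −0.92, DIA1 at −0.77, RTS3 at −0.75, ATO3, which encodes an ammonium exporter, at −0.74, and RCR1 at −0.72. On the asf1 array with TSA NCW2 stood at 0.28, and on the nap1 array with TSA CMK2 stood at −0.01.

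Of 42 genes for cell wall proteins and wall remodelling, 13 were above 0 and the median was −0.11. NCW2 and TIP1 (−0.61) were past 1.5-fold lower, CHS1, a chitin synthase gene, stood at −0.56, and CWP1, a mannoprotein gene, was the one past 1.5-fold higher at 0.68. CWP2 and CCW12, whose products are abundant wall proteins, stood at 0.51 and 0.38. In the cell wall integrity pathway, the median of 30 genes was −0.08. The list shares NCW2 with the one before, and its aspartyl protease gene YPS1 was lower (−0.65). SLT2, the kinase at the end of the pathway, stood at −0.54 and the sensor gene MID2 at −0.49, while the sensor gene WSC4 was higher at 0.81.

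Lipid and low-oxygen genes split. OLE1, which encodes the fatty acid desaturase, had untreated signals of 4861 and 4488 and TSA signals of 2673 and 2554, a ratio of −0.80 (SD 0.012). ANB1, the low-oxygen form of translation factor eIF5A, stood at −0.76, while COX5B, the low-oxygen form of a cytochrome c oxidase subunit, stood at 0.50 and HEM13 at −0.24. GPD2, a glycerol 3-phosphate dehydrogenase gene, stood at −0.73, and GPP2, for the phosphatase of the next step to glycerol, at 0.61. The low-oxygen list of 19 genes had a median of −0.02.

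**Figure D2:**
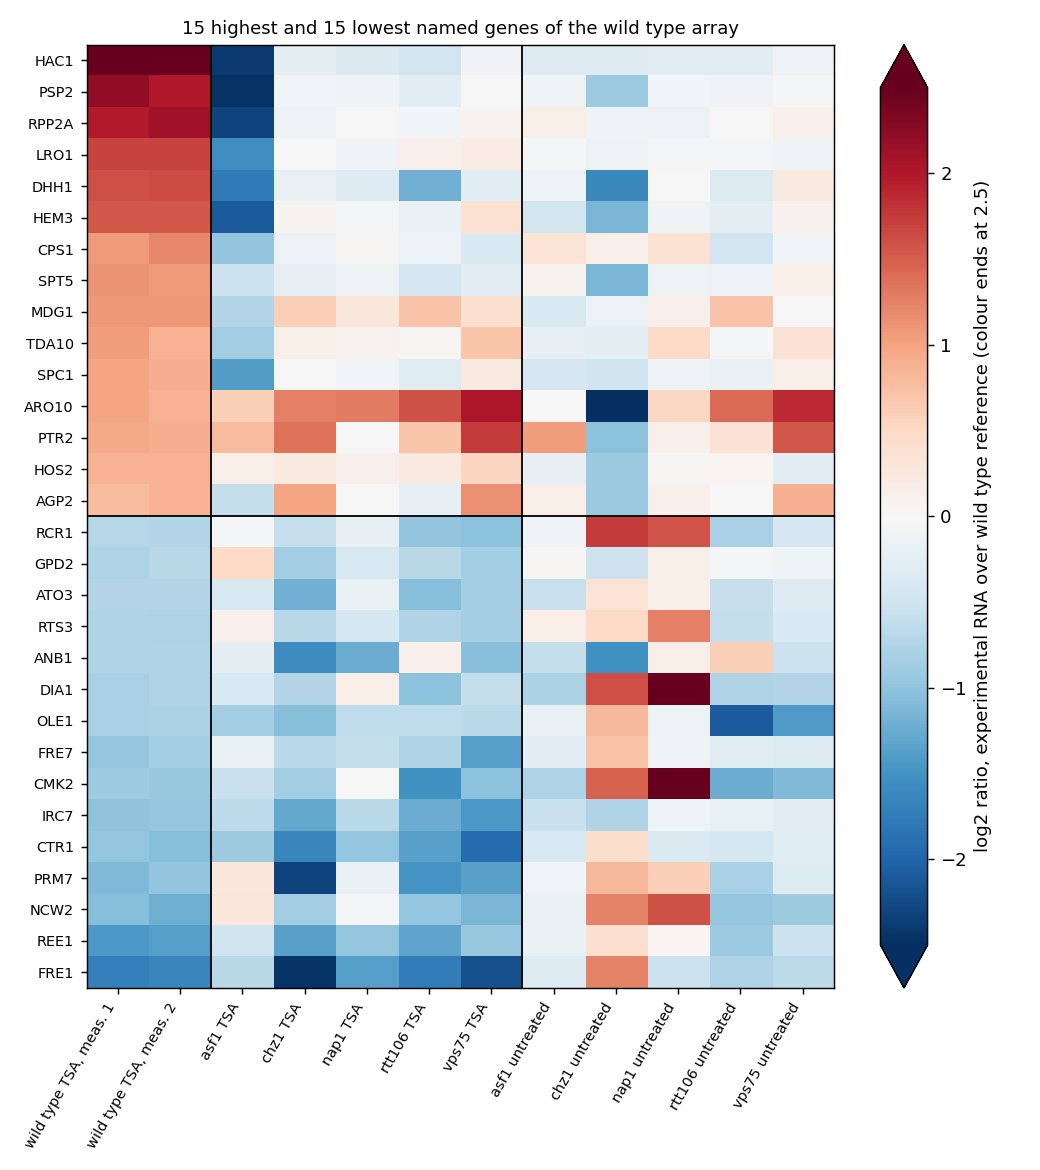
Each row is a gene, the 15 highest and the 15 lowest with a standard name on the wild type array, and each column is 1 of the 2 repeat measurements of that array or 1 of the 10 other arrays. Colour gives the log2 ratio of experimental RNA over wild type reference, ending at 2.5 on either side. HAC1 to HEM3 are red in both wild type repeats and blue on the asf1 array with TSA, from −1.55 to −2.47, and FRE1 runs from −2.44 to −0.69 over the deletion arrays with TSA.

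The highest genes were more separate in function. HAC1, whose product switches on the unfolded protein response, had untreated signals of 1588 and 1460 and TSA signals of 9345 and 8929, so the channels were far apart. Its ratio was 2.57 (SD 0.014), or 5.92-fold. PSP2, an RNA-binding protein gene, stood at 2.11, with untreated signals of 27 and 29, close to the floor, against 343 and 303. The ribosomal stalk protein gene RPP2A stood at 2.04 on signals of 7410 and 5775 untreated and 30361 and 25669 with TSA. LRO1, which makes triacylglycerol from phospholipids, stood at 1.69. DHH1, the RNA helicase of mRNA decapping, stood at 1.63 and HEM3, of haem synthesis, at 1.56. YLR162W, a gene without a standard name, was the highest of all at 2.97 (SD 0.021).

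The next named genes were the vacuolar carboxypeptidase gene CPS1 (1.13), the transcription elongation factor gene SPT5 (1.09), MDG1 (1.08), TDA10 (0.95) and the signal peptidase subunit gene SPC1 (0.95). ARO10, which encodes a decarboxylase of aromatic amino acid breakdown, stood at 0.93, the peptide transporter gene PTR2 at 0.93, the deacetylase gene HOS2 at 0.87 and AGP2, a plasma membrane regulator of transport, at 0.84.

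The related genes of the highest ones did not share their size. Of 25 genes of the unfolded protein response, HAC1 alone was past 1.5-fold, and its targets KAR2 (0.01), PDI1 (−0.13), EUG1 (−0.21) and ERO1 (−0.10) were near 0, as was IRE1 (−0.13), whose product splices the HAC1 mRNA. Of 138 cytosolic ribosomal protein genes, RPP2A alone was past 1.5-fold, and the next were RPL15A at 0.57 and the stalk gene RPP1A at 0.39. In mRNA decay, PSP2 and DHH1 were past 1.5-fold and LSM4 followed at 0.48. HEM2 and HEM1, of the steps before HEM3, stood at 0.37 and 0.28, and HEM12 stood at −0.11.

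The channels of these genes were set against the same channel on the other arrays. For HAC1, the untreated wild type signal of this array lay 2.17 below the median of the other 10 arrays on the log2(signal + 50) scale, and its TSA signal 0.39 above. The same distances were −2.13 and 0.17 for PSP2, −1.29 and 0.34 for RPP2A, −1.75 and 0.05 for LRO1, −1.76 and 0.22 for DHH1 and −1.32 and 0.46 for HEM3. Of the 15 highest named genes, 10 had their lowest untreated signal of 11 arrays here, against 4.46% of all genes tested, and 3 had their highest experimental signal, against 6.82%. Of the 15 lowest, 5 had their highest untreated signal here, against 23.3% of all genes, and 1 had its lowest experimental signal, against 1.22%. Both sets were chosen by their ratios on this same array, which favours extreme signals in either channel. The counts are not independent of that choice. The other untreated channels held the wild type RNA of other arrays, and the other experimental channels held deletion strains. YLR162W differed from the 6, with distances of −1.50 in the untreated and 2.04 in the TSA channel.

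On the asf1 array with TSA, HAC1 stood at −2.38, PSP2 at −2.47, RPP2A at −2.32, LRO1 at −1.55, DHH1 at −1.77, HEM3 at −2.10 and YLR162W at −2.87, the opposite side from wild type. On the chz1, nap1, rtt106 and vps75 arrays with TSA, HAC1 lay between −0.46 and −0.10. What lowered these signals in 1 channel of each of 2 arrays was not tested.

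**Figure D3:**
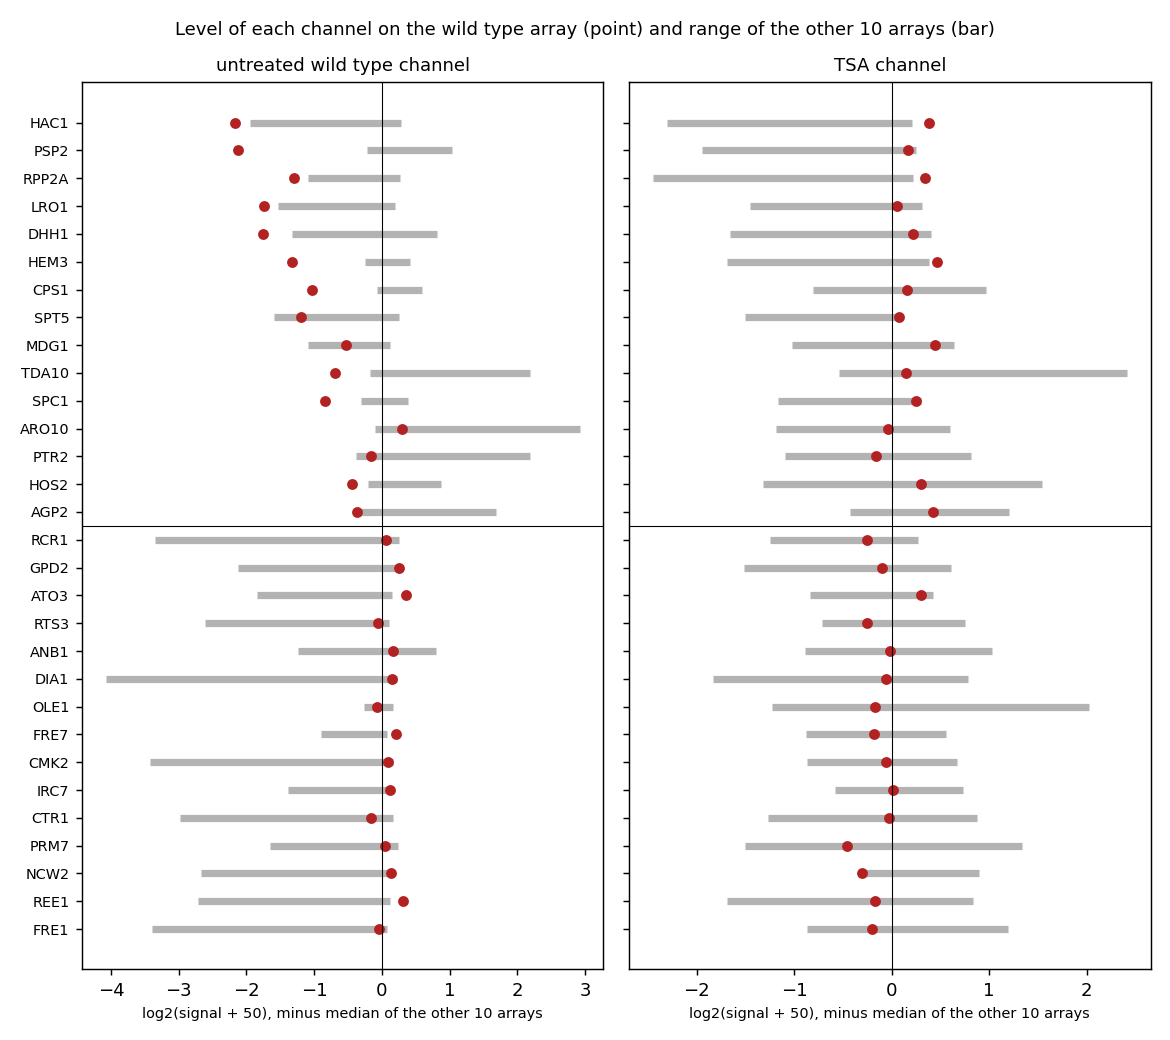
For the 15 highest (upper rows) and 15 lowest (lower rows) named genes, the red point is the level of the untreated wild type channel (left) and the TSA channel (right) of the wild type array, as log2(signal + 50) with each channel centred on its median, minus the median of the other 10 arrays. Grey bars span those 10 arrays. The untreated points of HAC1, PSP2, RPP2A, LRO1, DHH1 and HEM3 lie left of the bars, from −2.17 to −1.29, and their TSA points lie between 0.05 and 0.46.

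Most genes of mitochondrial energy metabolism stayed within 1.5-fold. Of 41 nuclear genes of the respiratory chain and ATP synthase, 34 were above 0, 3 were at least 1.5-fold higher and none lower, with a median of 0.15. Over all genes tested, 48.9% were above 0 and 0.987% were at least 1.5-fold higher. CYT1, for cytochrome c1, stood at 0.83, HAP4, for the activating subunit of the regulator of respiratory genes, at 0.71, ATP1, for a subunit of the ATP synthase, at 0.62 and CYC1, for cytochrome c, at 0.54. The mitochondrial ribosome had 67 of 87 genes above 0 and a median of 0.08, led by MRPS17 at 0.67. In the TCA cycle, citrate synthase CIT1 (0.44) and KGD1 (0.42) were highest and the median of 17 genes was 0.10.

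Transcripts of the mitochondrial genome, a list added after their values were seen, had 20 of 21 tested members above 0 and a median of 0.41. Of the 21, 6 were at least 1.5-fold higher, against 0.987% of all genes tested. VAR1, for a mitochondrial ribosomal protein, stood at 0.78, COX2 at 0.66, COB at 0.61 and COX1 at 0.44, and BI4, an intron reading frame, was the one below 0 at −0.02. Many are dim, such as COX2 with signals of 26 and 90 in repeat 1, but COB had 2790 and 4228 as means of both repeats. Introns and exons of a gene share a precursor, so these members are not independent of each other.

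Of 94 ribosome biogenesis genes, 28 were above 0, none was past 1.5-fold and the median was −0.09, with MRD1 at −0.50 and NOC3 at −0.45. The cytosolic ribosomal protein genes had a median of −0.01. Of 30 cyclins and cell cycle regulators, 27 were above 0 with none past 1.5-fold, and their median was 0.22. Among these, the repressor gene YHP1 stood at 0.49, the cyclin gene CLB1 at 0.48 and SWI5, for an activator of late mitosis, at 0.45.

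In the lists of amino acid and cofactor synthesis, IRC7 alone passed 1.5-fold. In sulfate and methionine metabolism, 7 of 32 genes were above 0 and the median was −0.14, with SAM1, for S-adenosylmethionine synthase, at −0.45. The Gcn4 targets of amino acid synthesis had 13 of 45 genes above 0 and a median of −0.11, led by the lysine gene LYS20 at −0.55 and ILV6 at −0.45. In NAD synthesis, 2 of 14 genes were above 0, with the nicotinic acid transporter gene TNA1 lowest at −0.45. ARO10 and ARO9, the decarboxylase and aminotransferase of aromatic amino acid breakdown, were higher at 0.93 and 0.79, while their activator gene ARO80 stood at −0.25. ARO10 was higher on the untreated arrays of rtt106 (1.41) and vps75 (1.86) too.

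**Figure D4:**
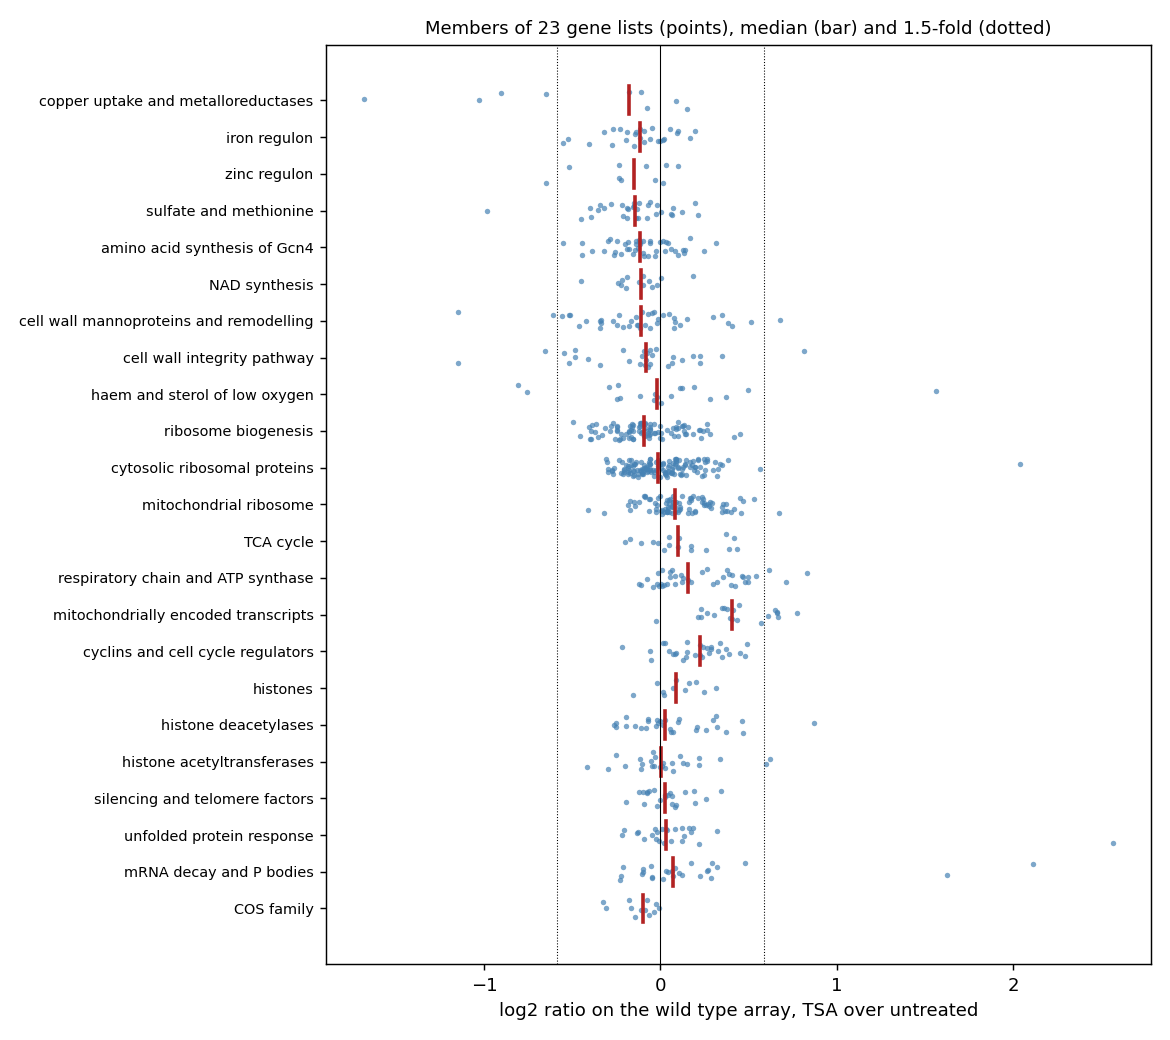
Each blue point is a gene of the wild type array, placed by its log2 ratio of TSA over untreated RNA, in 23 gene lists. The red bar is the list's median and the dotted lines mark 1.5-fold. The copper list reaches −1.68 with FRE1, the mitochondrially encoded transcripts have the median farthest to the right at 0.41, and most lists spread on both sides of 0 with a few members far out.

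The genes for histone deacetylases mostly stayed within 1.5-fold. RPD3 stood at 0.30, HDA1 at 0.20, HOS1 at −0.11, HOS3 at 0.32 and SIR2, which is not a target of TSA, at −0.19. HOS2 was the one of 31 genes of deacetylase complexes past 1.5-fold, at 0.87 (SD 0.0090), with untreated signals of 30 and 21 close to the floor and TSA signals of 117 and 103. Without the offset of 50 its ratio was 1.64, and on the other 5 TSA arrays it lay between 0.13 and 0.54. Of 26 acetyltransferase genes, SAS3 (0.62) and ADA2 (0.60) were just past 1.5-fold higher in the mean, against 0.987% of all genes tested. Neither passed in both repeats, which stood at 0.67 and 0.57 for SAS3 and at 0.53 and 0.67 for ADA2. The catalytic subunit genes GCN5 (0.02) and ESA1 (−0.00) were near 0.

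Of 11 histone genes, 9 were above 0 and none was past 1.5-fold, from HHT2 at −0.16 to HHT1 at 0.31. The genes of 1 histone protein are close copies, so their probes may share signal. The chaperone genes deleted in the other strains stood at 0.29 (ASF1), 0.04 (CHZ1), −0.07 (NAP1), −0.09 (RTT106) and 0.04 (VPS75). Early meiotic genes repressed through Ume6 and Rpd3 had a median of −0.01 over the 19 of 26 members that passed the detection filter. IME2 stood at −0.24 and SPO16 at 0.19, and none was past 1.5-fold. The place of this list depends on the processing. Relative to the median of all genes it lay at −0.05 without the offset, at 0.16 with median centring and at 0.47 with the deposited log ratio, on an array whose floor signal was 2.06 times higher in the TSA channel. The part of the floor in these values was not tested, and no direction is read from them.

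Near chromosome ends, where silencing is known to act, the 10 outermost systematic names of each of 32 arms were taken. Of these 320 genes, 268 were tested, and their median minus that of the other 5610 genes, the subtelomeric shift, was −0.03. The sign reversed with other centrings, where the subtelomeric genes had the higher median and the shift was 0.07 to 0.14. Of the 268, 10 were at least 1.5-fold higher, or 3.73% against 0.856% of the other genes, and 3 were lower, or 1.12% against 0.517%. Those 10 all lack a standard name, as do 94 of the 268. Of the 10, 9 had their lowest untreated signal of 11 arrays here, against 4.46% of all genes tested. The 10 too were picked by their ratio on this array, which favours a low untreated signal. The highest were YEL076C-A (1.31), YLR464W (1.26), YFL064C (1.10), YFL066C (0.83), YHL049C (0.74) and YPR203W (0.72).

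YEL076C-A had untreated signals of 148 and 134 and TSA signals of 456 and 441, and its TSA channel lay 0.06 above the median of the other arrays while its untreated channel lay 1.53 below. Such genes at chromosome ends can be near-identical copies, so the 10 may report fewer separate transcripts, and YEL076C overlaps YEL076C-A in assembly R64. On the asf1, nap1 and rtt106 arrays with TSA all 10 were below 0, and on the vps75 array with TSA 9 were. On the chz1 array with TSA all 10 were above 0, at most at 0.25. Without TSA, all 10 were below 0 on the chz1 array, from −2.75 to −0.34, and 2 on the rtt106 array. None was below 0 on the untreated asf1, nap1 and vps75 arrays. The lowest subtelomeric genes were REE1, IRC7 and FET4, followed by URA1 (−0.48), YDL241W (−0.47) and BAS1 (−0.47). The COS genes, a subtelomeric family, had 0 of 12 members above 0 and a median of −0.10. The silencing genes SIR3 (0.07) and SIR4 (0.07) were near 0.

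**Figure D5:**
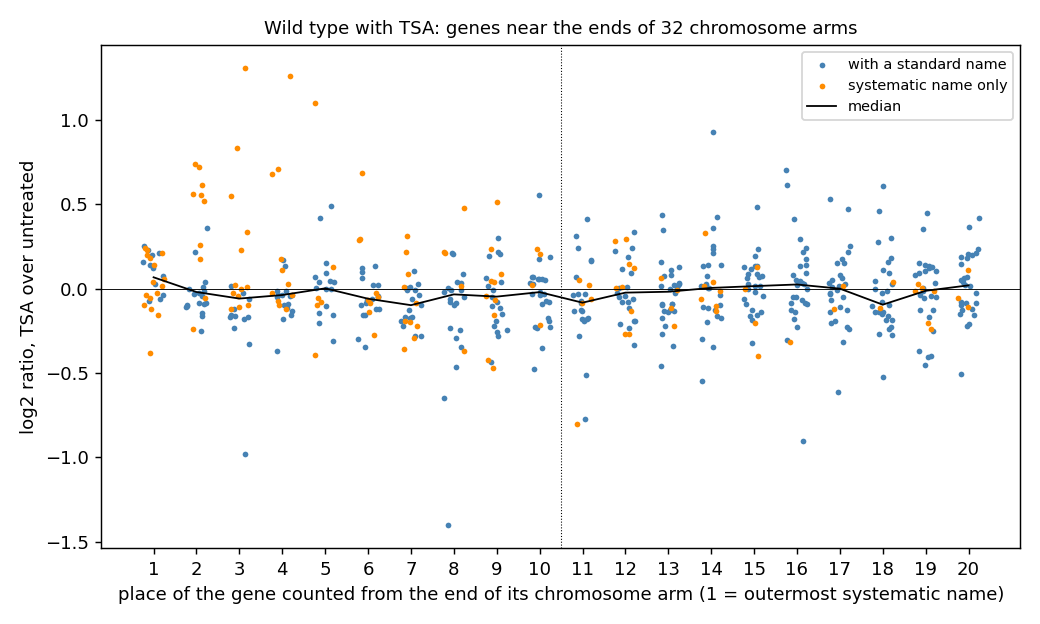
Genes are placed by their order from the end of 32 chromosome arms (horizontal axis, 1 is outermost) and by their log2 ratio on the wild type array (vertical axis). Orange points have a systematic name alone and blue points a standard name, the line is the median at each place, and the dotted line closes the 10 outermost. The median stays near 0 throughout, and the points above 0.6 in the first 10 places are orange, up to 1.31.

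Earlier analysis of the 10 deletion arrays had named 12 genes on the lower and 12 on the higher side of TSA, and their wild type values are given here beside them. On the lower side, FRE1, REE1, CTR1 and IRC7 were past 1.5-fold lower in wild type, and the median of the 12 was −0.24. NCE103, for carbonic anhydrase, stood at −0.32, SAS5 at −0.25 and RRP12 at −0.22, while PDR5, a drug efflux pump gene, stood at 0.58 and EPL1 at 0.01. On the higher side, GPP2 (0.61) was past 1.5-fold and CYC1 (0.54) and CWP2 (0.51) followed, with a median of 0.21 in wild type. The wild type values of the glycogen genes GSY1 (0.12) and GLG1 (0.02) and of the stress gene TFS1 (0.04) lay below their means over the 5 strains, which were 0.56, 0.49 and 0.45. Those means were part of how the 24 genes had been chosen.

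A test of TSA in wild type needs a spread that 1 array cannot give. A limma fit over all 11 arrays, with a term for each deletion strain, therefore took the spread from the 5 strains and assumed that the wild type array varies like them. At an adjusted p of 0.05 it called 0 of 5878 genes (0%) for TSA in wild type, a count that rests on the spread of the 5 strain pairs. In this limma fit HAC1 had the lowest unadjusted p (0.0011), followed by NPL3, an RNA-binding protein gene at 0.70 (0.0026), MDG1 (0.0028) and YLR162W (0.0029), and REE1 (0.0042) and IRC7 (0.0052) had the lowest on the lower side. The fit also called 0 genes (0%) for wild type against the deletion strains, with 131 at an unadjusted p under 0.05, and 0 (0%) for TSA across the deletion strains, with 252. With the untreated deletion strain read as the control on the 5 TSA arrays of deletion strains, as their channel labels name it, and a fit of the TSA arrays alone, the last count was 410, with 203 genes higher and 207 lower. The reference channels of these 5 arrays held the transcript of the deleted gene. The count of 410 therefore also takes in changes from the deletions themselves.

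Leaving out the asf1 or the chz1 pair changed the counts of called genes for wild type, and leaving out nap1, rtt106 or vps75 did not. The spread of the fit leaned on the chz1 pair. Its median over genes, as an SD, was 0.16 with all pairs, 0.11 without chz1 and 0.16 to 0.18 without any other pair. Across genes, the log2 ratios of the chz1 array without TSA had an SD of 0.54, against 0.19 to 0.42 on the other arrays. Without the asf1 pair, limma called HAC1 (adjusted p = 0.0087), RPP2A (0.014) and LRO1 (0.030) higher with TSA in wild type, and HAC1 and RPP2A also as higher in wild type than in the deletion strains. Without the chz1 pair it called 0 genes for TSA in wild type but 9 for the difference, all higher in wild type. These were DHH1, SPT5, ATG15, PTK1, YEL076C, YEL076C-A, YFL066C, YHL049C and YLR464W, with adjusted p of 0.026 to 0.040. FRE1 was not called in any of these fits, and its standard error was 0.69 (unadjusted p = 0.044), since its TSA difference ran from −3.68 in chz1 to −0.37 in asf1.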

How the data were processed

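For each array the authors deposited 2 repeat intensity measurements per channel, a log10 ratio and a signed fold, per the file headers. The series matrix, deposited by the authors in log2, held that fold cut down, not rounded, to 1 decimal (6256 of 6256 genes of the wild type array within 0.001), so 39.3% of its values were 0. How the scans were corrected and scaled is not given in the sources used here. Ratios as deposited run as reference over experimental RNA and were turned. The labels disagree on the reference of 6 deletion arrays. Wild type was used, since each deleted gene was detected in the reference channel. The nap1 array without TSA was turned by its deleted gene, and for the vps75 arrays, exchanged in the matrix, the sample files were followed. The wild type array correlated with the others at r of −0.16 to 0.46.

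Signals were raised by 50, normalized by loess (span 0.3) within each repeat and averaged (limma 3.58.1, R 4.3.3, Python 3.11.15). A gene was tested if its signal in either channel exceeded 2 times the median of the 4 missing marker genes on at least 50% of arrays. This left 5878 of 6256 genes. Of all 6256 genes, 5756 matched RefSeq assembly R64. The fit used lmFit and eBayes with Benjamini-Hochberg adjustment. On simulated data it recovered 84 of 100 genes changed by a log2 of 1 and 97 of 100 changed by 2, with 9 false calls among 5678. The simulated spread was normal and taken from the same fit, and the changed genes were drawn at random. These rates need not hold for the measured ratios.

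Named genes were the 15 highest and 15 lowest with a standard name, detected in both channels and past 1.5-fold in both repeats, up to 4 per gene list described, the chaperone and deacetylase genes, 6 subtelomeric genes each way and genes that the fit called. The members, 52 gene lists and rules were chosen with earlier results of these data known. NPL3, CRR1, YDL038C, YLR162W and other genes of the lists were named after their values were seen. The number of arrays limits the precision.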

Additional observations from a re-analysis of the deposited data

Results flagged for a closer look

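For 7 of 240 genes examined (2.92%), the ratio in wild type lay on 1 side of 0 in both repeats and the TSA difference lay on the other side in all 5 deletion strains. The same held for 92 of all 5878 genes tested (1.57%). In wild type, BSC1 stood at 0.28, PDR5 at 0.58, RPN13 at 0.46, PRE6 at 0.36, PUP2 at 0.29 and CIT2 at 0.14, and the strain means were −0.96, −0.40, −0.23, −0.17, −0.16 and −0.34. TPS2 stood at −0.33 in wild type and at 0.39 in the strains. BSC1 and PDR5 had been chosen for being low in the deletion strains. RPN13, PRE6 and PUP2 encode parts of the proteasome, whose list had a wild type median of 0.04 with 21 of 34 genes above 0. In the limma test of the difference none of the 7 was called. The untreated signal of BSC1 on the wild type array, 73 and 93 in the 2 repeats, lay 0.90 below the median of the other arrays on the log2 scale. The part of that channel in its ratio was not tested.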

How the results depend on the processing

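The count of genes 2-fold higher, 13 as reported, was 26 without the offset, 81 with the deposited log ratio, 81 with the series matrix and 58 at a threshold of 1.5-fold. The matrix is that ratio cut to 1 decimal, so it passes the same thresholds by construction. The count of genes 2-fold lower, 6 as reported, was 11 without the offset, 9 with either deposited value and 32 at 1.5-fold. Leaving out each deletion strain in turn gave 0 to 3 limma calls for TSA in wild type, 0 to 9 for wild type against the deletion strains and 0 to 0 for TSA across the deletion strains. With the untreated deletion strain read as the control on the 5 TSA arrays of deletion strains, and these and the wild type array fitted alone, limma called 410 genes for TSA across the deletion strains, and without the replicate block by strain it called 0. The 410 also take in changes from the deletions, since the reference channels of those 5 arrays held the transcript of the deleted gene. The subtelomeric shift of −0.03 was −0.058 without the offset, 0.065 by median centring, 0.11 for the deposited log ratio, 0.14 for the series matrix, −0.027 without the detection filter, −0.020 with 5 genes per arm and −0.023 with 20. The ratios of the 61 named genes past 1.5-fold kept their sign in all 366 alternative values. The shifts of the 14 lists at least 0.1 from the median of all genes kept theirs in 106 of 112. In the other 6, all with the series matrix, the shift was 0 (copper uptake, iron, cell wall, sulfate and methionine, Gcn4 and NAD lists). The genes and lists were chosen for their values on this array, and every alternative reuses its signals, so kept signs were favoured in advance. Signals near the floor limit what dim genes can show. No replicate bears on the wild type array.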

Other observations

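Gene groups outside the comparisons above held a few members with large ratios. In the pheromone response list AGA1 stood at 0.63 and STE12, for the activator, at 0.51, while PRM7 was at −1.05. The polyamine exporter gene TPO1 stood at 0.81 and RTA1 at −0.68. The acid phosphatase gene PHO5 stood at 0.63 with untreated signals near 1627 and TSA signals near 2516 in repeat 1. Among hexose transporters, HXT7 (0.61) and HXT6 (0.48), close copies of each other, were above 0, and HXT2 (−0.48) and HXT1 (−0.39) below. The glycolytic gene PDC1 stood at 0.52 on the bright signals of 46906 and 73413 in repeat 1. The heat shock gene BTN2 stood at −0.58 and HSP26 at 0.39.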
